A study of Saccharomyces cerevisiae with 14 samples.

Results

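The genes examined here encode 6 regulators of yeast respiration and heme responses, HAP1, HAP2, HAP3, HAP4, HAP5 and ROX1, and the question is where the transcription factor Sef1 was recovered at their promoters. Their members are the chromatin immunoprecipitation sequencing (ChIP-seq) peaks whose position falls in a window around the ATG of each gene, with 2000 bp before it and 200 bp after it. Of 3812 peaks in 7 lists, 30 lay in these windows, and they formed 4 sites at 3 of the 6 genes. Among sites called in at least 3 repeats of a medium, these were 4 of 645, and 1066 sites were called in any list.

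Sef1, a zinc cluster transcription factor, carried a TAP tag in the Saccharomyces cerevisiae strain W303ScSef1TAPNB1-1, a MATa strain with the SEF1-TAP::FRT allele in all samples. It also carries, in all samples, the marker alleles trp1-1, ura3-1 and ade2-1, his3 (alleles 11 and 15), leu2 (alleles 3 and 112) and can1-100. Cells were grown at 30°C for 4.5 h in YPGly, a glycerol medium that requires respiration (3 lists, 0.4 OD600 per ml, 500 OD600 units of cells per sample), or in YPD, a glucose medium that represses it (4 lists, 1 OD600 per ml, 1500 OD600 units). Per the study's methods, each YPD sample was divided into 3 portions of 500 OD600 units for immunoprecipitation, and their DNA was then pooled. Each list gave the peaks of 1 ChIP library over its own input, and no untagged strain was analysed here. The YPGly lists held 520, 373 and 395 peaks and the YPD lists held 528, 771, 615 and 610 peaks. The medium, the growth density and the amount of cells cannot be told apart in this design, and YPGly repeat 3 was the only repeat sequenced in pairs. W303 is a laboratory strain related to S288C, and its reads were placed on the S288C genome.

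The Hap2/3/4/5 complex activates many genes of respiration: Hap2, Hap3 and Hap5 bind the CCAAT box together, and Hap4 supplies the activation domain and is the subunit whose gene is repressed by glucose. Hap1 is a zinc cluster activator that responds to heme. Rox1 is a repressor of hypoxic genes whose own synthesis depends on heme and Hap1.

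The 251 bases around the center of each of the 4 sites are shown because the triplets that zinc cluster proteins contact, CGG or its complement CCG, differed widely in number among them. Capitals mark these triplets, and all sequences are the plus strand of the S288C genome (R64). The windows span XI:231159-231409 for the nearer HAP4 site, XI:230394-230644 for the farther HAP4 site, XII:645895-646145 for HAP1 and XVI:679009-679259 for ROX1.
HAP4 nearer: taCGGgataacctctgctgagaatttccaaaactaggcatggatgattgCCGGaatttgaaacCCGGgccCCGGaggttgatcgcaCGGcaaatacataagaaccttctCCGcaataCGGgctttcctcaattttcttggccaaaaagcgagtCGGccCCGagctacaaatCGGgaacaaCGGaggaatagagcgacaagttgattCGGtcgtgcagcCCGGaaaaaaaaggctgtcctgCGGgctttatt
HAP4 farther: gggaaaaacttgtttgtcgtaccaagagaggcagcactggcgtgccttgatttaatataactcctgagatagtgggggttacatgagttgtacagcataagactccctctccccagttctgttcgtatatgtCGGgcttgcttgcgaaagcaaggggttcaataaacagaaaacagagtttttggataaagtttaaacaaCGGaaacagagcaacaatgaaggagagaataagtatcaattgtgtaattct
HAP1: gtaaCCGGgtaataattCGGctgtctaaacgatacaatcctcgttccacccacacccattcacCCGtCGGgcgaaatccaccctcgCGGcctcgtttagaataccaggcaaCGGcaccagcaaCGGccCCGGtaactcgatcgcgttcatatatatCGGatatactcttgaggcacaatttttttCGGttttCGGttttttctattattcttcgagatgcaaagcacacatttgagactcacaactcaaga
ROX1: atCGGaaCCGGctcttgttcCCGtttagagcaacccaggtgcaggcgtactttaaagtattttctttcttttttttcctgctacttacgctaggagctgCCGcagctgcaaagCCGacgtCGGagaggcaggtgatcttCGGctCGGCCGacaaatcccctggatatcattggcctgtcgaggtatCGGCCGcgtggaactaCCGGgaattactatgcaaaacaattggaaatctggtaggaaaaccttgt

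The nearer HAP4 window held 18 CGG or CCG triplets, the ROX1 window 14, the HAP1 window 13 and the farther HAP4 window 2. The median was 6 over the 645 sites and 3 over 48085 windows of the genome. As many triplets as at the nearer HAP4 site were found at 1.55% of sites and in 0.0146% of genome windows. For ROX1 these shares were 7.44% and 0.0977%, and for HAP1 they were 10.2% and 0.179%. The farther HAP4 window was poor in triplets, since 91.3% of sites and 72.4% of genome windows held at least as many. Its GC content was 41.4%, against 50.6% at the nearer HAP4 site, 50.6% at ROX1 and 47.4% at HAP1. The farther HAP4 window was centered between 2 groups of peaks, at XI:230388 to XI:230424 and at XI:230579 to XI:230625. No peak lay at its center, and the YPGly repeat 1 peak at XI:230388 lay outside it.

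Of the 4 sites, the nearer HAP4 site held the spaced pair CCGNNNNNCGG, and it held it 2 times. The matches were CCGGGCCCCGG at XI:231222-231232, whose middle lies at -1000 bp from the ATG, and CCGCAATACGG at XI:231268-231278, with its middle at -954 bp. This pair was found at 9.46% of the 645 sites and in 0.661% of genome windows of the same length, and 7 sites (1.09%) held it 2 or more times. Over the whole promoter windows, HAP4 held 2 matches and HAP2 held 1, at -1129 bp, where no list called a peak. Of 6002 genes, 451 (7.51%) held a match in their window.

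Letters that the members' own products are known to recognise were also looked for on both strands. CCAAT, the box of the Hap2/3/4/5 complex, was present in the ROX1 window, at XVI:679177-679181 and XVI:679233-679237, and in none of the other 3 windows. It was in 36% of the 645 sites and 48.9% of genome windows. ATTGTT, the core of the Rox1 site, was in the ROX1 window at XVI:679229-679234 and in the farther HAP4 window at XI:230606-230611, with a share of 22.2% of sites and 27.7% of genome windows. In the ROX1 window this match shares bases with the second CCAAT match. The Hap1 pair CGGNNNTANCGG was in none of the 4 windows, 0.93% of sites and 0.247% of genome windows. These matches are descriptions of the letters and not measured binding of Hap or Rox1 proteins.

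HAP4, HAP1 and ROX1 had a site called in at least 3 repeats of a medium, which is 3 of 6 genes, beside 14.5% of 6002 nuclear protein-coding genes. Each of their 4 sites was called in all 7 lists, as were 203 sites in all. HAP2, HAP3 and HAP5, the genes of the CCAAT-binding subunits, had no peak in any list. The nearest peaks to HAP2 (YGL237C, VII:52731-53528, minus strand) lay -20386 bp from its ATG on the upstream side and 28273 bp on the downstream side, with enrichments of 1.28 and 1.27, both in YPD repeat 2. For HAP3 (YBL021C, II:181660-182094, minus strand) they lay at -11659 bp, with an enrichment of 1.06 in YPGly repeat 1, and at 16766 bp, with 3.11 in YPD repeat 1. For HAP5 (YOR358W, XV:1010161-1010889, plus strand) they lay at -20615 bp, with 5.33 in YPGly repeat 1, and at 18092 bp, with 1.64 in YPD repeat 3.

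**Figure D1:**
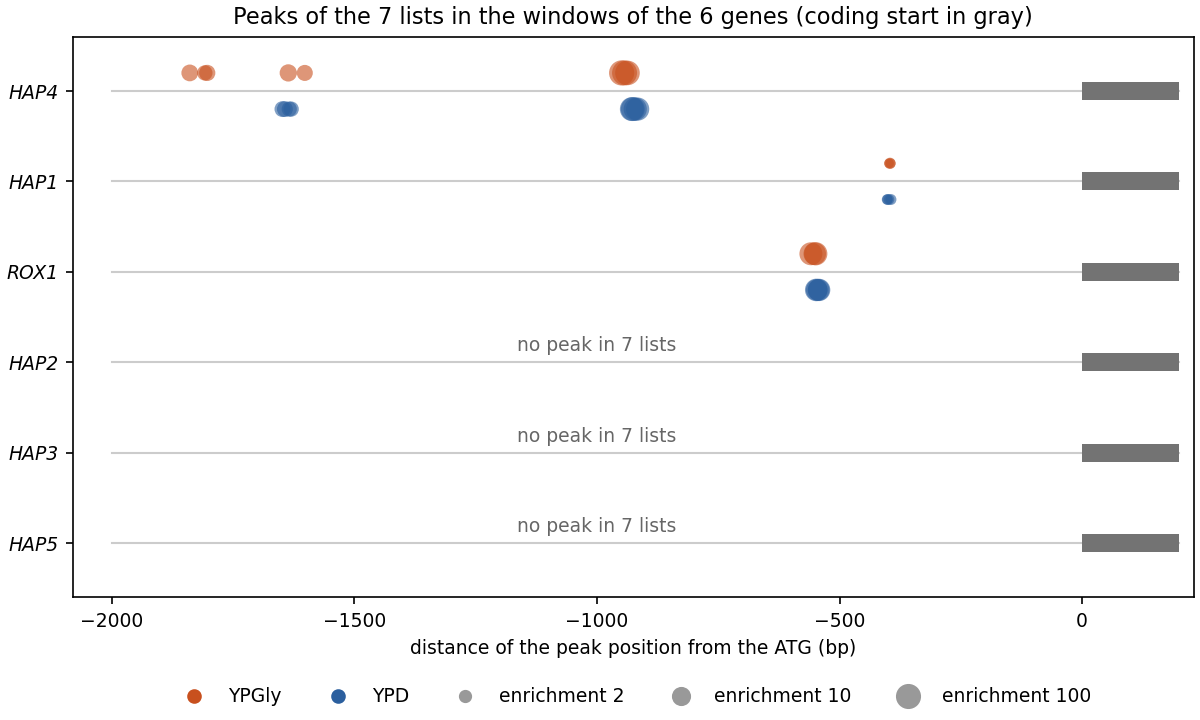
Peaks in the promoter windows of the 6 genes. The x axis gives the distance of each peak from the ATG in bp, the rows are the genes, point size follows enrichment, and YPGly peaks stand above and YPD peaks below each line; 16 peaks lie at HAP4, 7 at HAP1, 7 at ROX1 and none at HAP2, HAP3 or HAP5.

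HAP4 (YKL109W, XI:232227-233891, plus strand) had 2 sites in the 2346 bp between its coding region and that of KTI12, which is read in the opposite direction. The nearer site spanned XI:231155-231414, with its center at -943 bp from the HAP4 ATG and -1404 bp from the KTI12 ATG, so it lay in both windows. Its enrichment, the ratio of ChIP to input at the peak, was 275, 208 and 248 in the YPGly lists and 149, 107, 107 and 150 in the YPD lists. All 3 YPGly values were above all 4 YPD values. They averaged 243 ± 34.0 in YPGly (SD, n = 3) and 128 ± 24.5 in YPD (SD, n = 4), a ratio of 1.90. Enrichments have no common scale across lists: every YPGly value was above every YPD value at 51.7% of the 203 common sites, and the median shift over these sites was 0.40 on the log2 scale. On that scale the nearer HAP4 site differed by 0.93, and by 0.23 once each list was divided by the median of its common sites. The divided difference did not pass the threshold of 0.05 (adjusted p = 0.102 by Benjamini-Hochberg, exact permutation test), while 72.4% of the 203 sites passed in that test.

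Ranks within a list do not need a common scale, and 1 is the highest enrichment. The nearer HAP4 site ranked 1, 2 and 2 in YPGly and 5 in each YPD list, both among all peaks of a list and among the common sites. The mean rank shift was -3.33, with p = 0.0286 in an exact two-sided permutation test over the 35 splits of 7 lists, the smallest p this design allows. The adjusted p was 0.0523 (Benjamini-Hochberg over all 203 sites, exact permutation test), so the shift did not pass the threshold of 0.05. The smallest adjusted p of any site was also 0.0523, so 0% of sites passed, while 111 sites (54.7%) had an unadjusted p under 0.05. At 31% of sites every YPGly rank was nearer the top than every YPD rank, as at the nearer HAP4 site. By the peak score of the lists, this site ranked 4, 4 and 5 in YPGly and 6 in each YPD list.

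**Figure D2:**
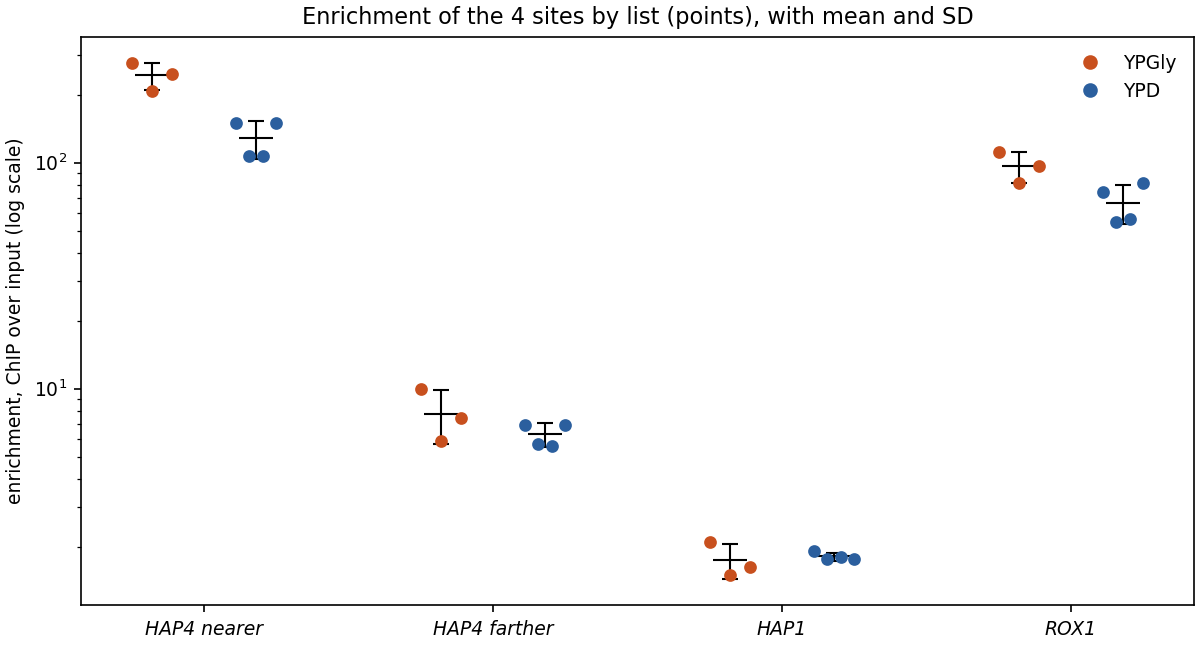
Enrichment at the 4 sites in each list. The y axis is the ratio of ChIP to input on a log scale, points are lists, and crosses give the mean and SD (3 YPGly, 4 YPD); the nearer HAP4 site averaged 243 in YPGly and 128 in YPD, and the HAP1 site 1.74 in YPGly and 1.81 in YPD.

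The peak positions at the nearer HAP4 site differed between media by less than the width of a peak. In YPGly they lay at -949, -937 and -943 bp from the ATG, and in YPD at -928, -916, -921 and -926 bp. All YPGly positions were farther from HAP4 than all YPD positions. The mean difference was -20.25 bp in the plus direction, YPGly minus YPD, with p = 0.0286 in the exact permutation test and an adjusted p of 0.181 over 190 sites with 1 peak in each list (Benjamini-Hochberg, exact permutation test). Among these 190 sites the median size of the shift was 7.5 bp, 39 sites had a larger one, and all YPGly positions had lower coordinates at 17.4% and higher coordinates at 10%. The positions lay 5, 17 and 11 bp from the middle of the second CCGNNNNNCGG match in YPGly and 26, 38, 33 and 28 bp from it in YPD. This comparison was chosen after the positions were seen, and the width given to peaks differed between lists (190 to 260 bp), whose part in the shift was not tested.

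**Figure D3:**
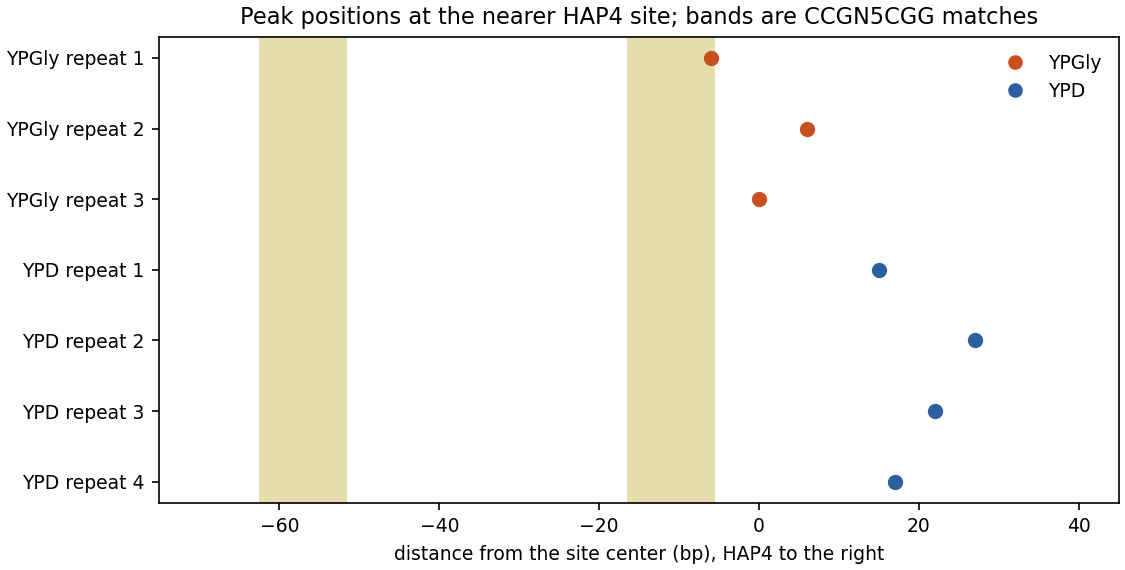
Peak positions at the nearer HAP4 site by list. The x axis is the distance from the site center in bp, rows are the 3 YPGly lists above the 4 YPD lists, and the bands are the 2 CCGNNNNNCGG matches; YPGly positions lie nearer the second match (5, 17 and 11 bp from its middle) than YPD positions (26 to 38 bp).

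The farther HAP4 site spanned XI:230284-230755, with its center at -1708 bp from the HAP4 ATG and -639 bp from the KTI12 ATG. It was weak beside its neighbor and held 2 peaks in some lists. YPGly repeat 1 had peaks at -1839 and -1636 bp, with enrichments of 9.15 and 10.8. YPGly repeat 2 had a single peak at -1808 bp, with 5.84, and YPGly repeat 3 had peaks at -1803 and -1602 bp, with 7.63 and 7.27. The 4 YPD lists each had 1 peak, between -1648 and -1630 bp, with 6.90, 5.68, 5.59 and 6.93. The YPD positions thus lay near the second of the paired YPGly peaks, and no YPD list had a peak near the first.

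With the peaks of a list averaged, the farther HAP4 site had an enrichment of 7.75 ± 2.07 in YPGly and 6.27 ± 0.740 in YPD (SD, n = 3 and 4), and the groups overlapped. Among the common sites it ranked 59, 60 and 58 in YPGly and 38, 37, 36 and 39 in YPD. The peaks behind these ranks differed. YPGly repeats 1 and 3 averaged an outer and an inner peak, and YPGly repeat 2 had the outer peak alone. Each YPD list had the inner peak alone, and the part of this in the shifts was not tested. Every YPGly rank was farther from the top than every YPD rank, which held for 35% of the common sites. The shift was 21.5 ranks (p = 0.0286, adjusted p = 0.0523 by Benjamini-Hochberg, exact permutation test), and 60.2 ranks when sites were ranked by score (adjusted p = 0.0504 by Benjamini-Hochberg, exact permutation test). Divided by the list medians, its enrichment differed by -0.42 on the log2 scale, with an adjusted p of 0.0395 (Benjamini-Hochberg, exact permutation test), and 72.4% of sites passed in that test. The only peak just outside the 2000 bp limit was a YPD repeat 2 peak at -2157 bp with an enrichment of 1.49, and the outermost peaks inside it were those at -1839 and -1808 bp.

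The balance of both HAP4 sites also differed between media. The farther site had 0.0362, 0.0281 and 0.0301 of the nearer site's enrichment in YPGly and 0.0462, 0.0530, 0.0522 and 0.0462 in YPD. These ratios, formed after the values were seen, are free only of a factor common to all sites of a list. Other differences between lists remain in them, and their part was not tested. The ratios did not overlap between media (p = 0.0286, adjusted p = 0.0424 over 202 sites by Benjamini-Hochberg, exact permutation test). The ratio to the nearer HAP4 site was lower in every YPGly list at 58.4% of the other sites, so the farther site shared this with most of them. These ratios rest on the same unlike peaks of the farther site as its ranks. Between the main peaks of both sites the distance was 713 to 722 bp in YPD. In YPGly it was 687 and 659 bp to the closer peak of repeats 1 and 3, and 890, 871 and 860 bp to the outer peak of repeats 1, 2 and 3.

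ROX1 (YPR065W, XVI:679693-680799, plus strand) had 1 site, at XVI:679005-679264 with its center at -559 bp. The whole site lay inside the coding region of YPR064W (XVI:678951-679370), an open reading frame upstream of ROX1 on the same strand, and the center was also -814 bp from the ATG of YPR063C. Its enrichment was 112, 81.4 and 97.0 in YPGly and 74.4, 54.7, 56.1 and 81.0 in YPD. Each YPGly value was above each YPD value, though the lowest YPGly and the highest YPD value differed by little. Such a separation was found at 51.7% of the 203 common sites. On the log2 scale the ROX1 difference was 0.55 (p = 0.0571, adjusted p = 0.0951 by Benjamini-Hochberg, exact permutation test). The means were 96.7 ± 15.2 in YPGly and 66.5 ± 13.2 in YPD (SD, n = 3 and 4).

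The rank of the ROX1 site hardly differed between media. It was 8, 8 and 9 in YPGly and 10, 9, 10 and 9 in YPD, with a shift of -1.17 (p = 0.171, adjusted p = 0.226 by Benjamini-Hochberg, exact permutation test). By score it was 9 in each YPGly list and 8, 7, 8 and 7 in YPD, which is the other direction. Divided by the list medians, the difference was -0.15 on the log2 scale, also in that other direction (adjusted p = 0.226 by Benjamini-Hochberg, exact permutation test). The peak positions lay at -549, -551 and -559 bp in YPGly and -542, -547, -543 and -548 bp in YPD, a shift of -8 bp (p = 0.0286, adjusted p = 0.181 by Benjamini-Hochberg, exact permutation test).

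HAP4 and ROX1 were among the highest sites of the series in both media. Of the common sites, 4 ranked in the top 5 of every list, the nearer HAP4 site among them, and 7 ranked in the top 10, with ROX1 added. The nearer HAP4 site had 2.46, 2.55 and 2.55 times the enrichment of ROX1 in YPGly and 2.01, 1.96, 1.91 and 1.85 times in YPD (adjusted p = 0.0555 by Benjamini-Hochberg, exact permutation test). The ratio to ROX1 was higher in every YPGly list at 32.7% of the other common sites. IDH2, which encodes a subunit of the mitochondrial isocitrate dehydrogenase of the citric acid cycle, was the other scale tried, also after the values were seen. The nearer HAP4 site had 1.10, 0.908 and 0.961 times its enrichment in YPGly and 0.464, 0.533, 0.387 and 0.396 times in YPD. ROX1 had 0.446, 0.356 and 0.377 times its enrichment in YPGly and 0.231, 0.272, 0.203 and 0.214 times in YPD. Both ratios had an adjusted p of 0.0641 (Benjamini-Hochberg, exact permutation test), and 53% of the other sites had a ratio to IDH2 that was higher in every YPGly list.

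HAP1 (YLR256W, XII:646415-650923, plus strand) had the weakest of the 4 sites, at XII:645891-646150 with its center at -395 bp. The site reached 63 bp into YLR255C (XII:645600-645953, minus strand), and its center was -67 bp from the ATG of YLR255C and -1047 bp from that of NDL1. Enrichment was 2.09, 1.50 and 1.63 in YPGly and 1.92, 1.76, 1.79 and 1.76 in YPD, and the groups overlapped. The means were 1.74 ± 0.307 in YPGly and 1.81 ± 0.0730 in YPD (SD, n = 3 and 4). All 7 positions lay within 8 bp of each other, between -402 and -394 bp, and the media differed by 2.42 bp (p = 0.343, exact permutation test).

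Lists differ in length, so the HAP1 rank is given with the number of peaks of each list. It was 310 of 520, 300 of 373 and 297 of 395 peaks in YPGly and 314 of 528, 215 of 771, 273 of 615 and 315 of 610 in YPD. Among the common sites it was 170, 181 and 177 in YPGly and 149, 136, 140 and 159 in YPD, a shift of 30 (p = 0.0571, adjusted p = 0.0866 by Benjamini-Hochberg, exact permutation test). The shift was 13.7 when sites were ranked by score (adjusted p = 0.0504 by Benjamini-Hochberg, exact permutation test) and 13.75 with every list held to the length of the shortest. Divided by the list medians, the difference was -0.77 on the log2 scale (adjusted p = 0.0395 by Benjamini-Hochberg, exact permutation test), and 72.4% of sites passed in that test. The deposited enrichments themselves differed by -0.07, so the difference on the divided scale came with list medians of 3.33 to 4.75 in YPGly and 2.18 to 2.64 in YPD.

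**Figure D4:**
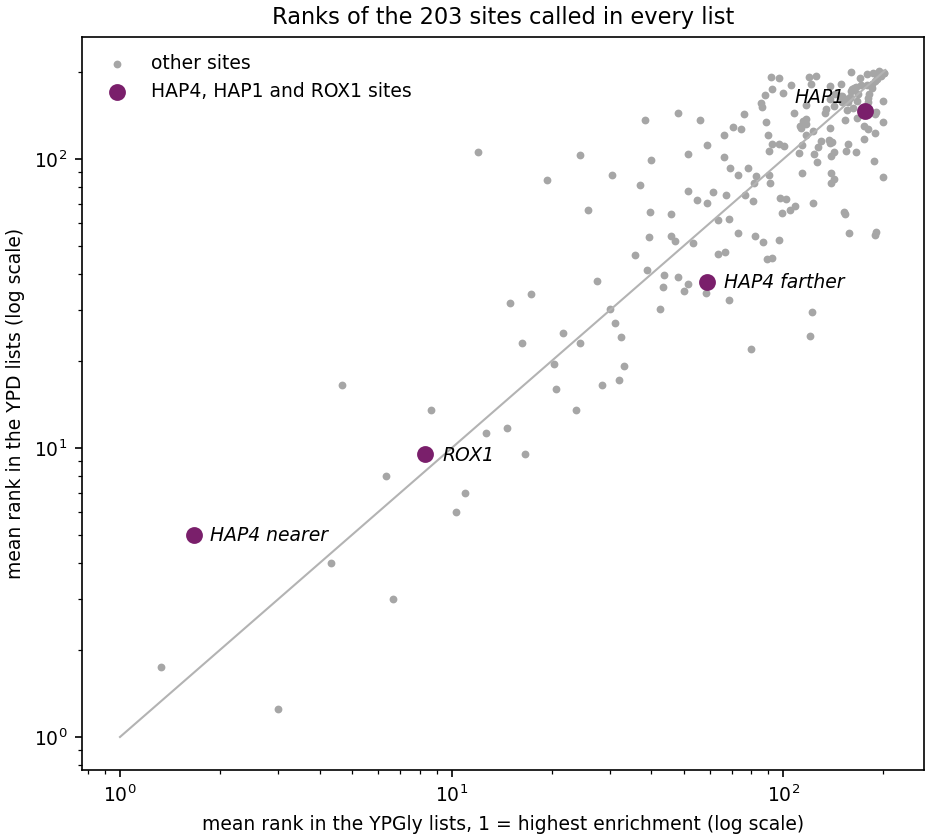
Mean ranks of the 203 common sites. Both axes are log scales on which 1 is the highest enrichment, with the mean over 3 YPGly lists on x and over 4 YPD lists on y; the nearer HAP4 site lies above the line of equal ranks (shift of -3.33), ROX1 close to it (-1.17), and the farther HAP4 and HAP1 sites below it (21.5 and 30).

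The sites most like the nearer HAP4 site, by the mean absolute difference of rank over 7 lists, were those of ACO1 (1.71 ranks), IDH2 (2.29), ISA1 and HSP104 (2.71), IDH1 and NCE103 (3.29), and COR1, YBL044W and ECM13 (3.71). ACO1 encodes aconitase and IDH1 the other subunit of isocitrate dehydrogenase, while COR1 encodes a core subunit of complex III. ACO1 averaged 173 ± 7.24 in YPGly and 239 ± 56.5 in YPD, and IDH2 245 ± 15.1 in YPGly and 294 ± 75.1 in YPD (SD, n = 3 and 4). The COR1 site averaged 138 ± 24.9 in YPGly and 71.3 ± 15.1 in YPD, so that among these 5 it was the one with the higher mean in YPGly, as at HAP4. For ROX1 the most alike sites were those of COR1, YBL044W and ECM13 (1.71 ranks), NDE1 (2.57), ADR1 (2.71), UPS2 and TAG1 (2.86), and GIP3 and ISU1 (2.86). NDE1 encodes the external mitochondrial NADH dehydrogenase and ADR1 an activator of genes for growth without glucose. ADR1 averaged 98.6 ± 17.6 in YPGly and 18.6 ± 4.09 in YPD, and NDE1 76.6 ± 11.8 in YPGly and 77.9 ± 13.6 in YPD (SD, n = 3 and 4).

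The genes that these regulators act on were then examined. Of 12 Hap2/3/4/5 targets, 2 had a site (16.7%, CYT1 and ATP1), close to the 14.5% of all genes. Of 9 Hap1 targets, 4 had a site (44.4%: CYT1, CYB2, HMG1 and YHB1), and of 11 Rox1 targets and corepressor genes, 4 had a site (36.4%: OLE1, ERG11, MOT3 and CYC8). None of 8 genes of heme synthesis had a site. These lists are short and CYT1 stands in 2 of them. The sites at OLE1 (SDS23), CYC8 (RAD16), YHB1 (PHO81) and CYB2 (YML054C-A and SUR7) also lay in the windows of the genes in parentheses. The CYT1 site at -506 bp also lay in the window of YNG1. No site in any of the lists passed the adjusted threshold of the rank test, but neither did any other of the 203 common sites, so this does not set these genes apart. The sites at ATP1, CYB2 and CYC8 and the CYT1 site at -1640 bp were not called in every list and were not tested.

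The strongest of these sites were at OLE1, ERG11 and MOT3, of the list of Rox1 targets and corepressor genes. HEM13, ANB1, CYC7, COX5B, AAC3, HMG2 and TUP1 of that list had no site. OLE1, the fatty acid desaturase gene, had a site at -567 bp with enrichments of 29.1, 20.4 and 24.9 in YPGly and 21.1, 13.9, 15.9 and 20.3 in YPD. ERG11, a gene of ergosterol synthesis, had one at -808 bp with 11.7, 8.25 and 9.12 in YPGly and 7.97, 5.28, 5.42 and 7.46 in YPD. In both, the ranks lay farther from the top in every YPGly list, by a mean of 10.2 at OLE1 and 14.7 at ERG11 (p = 0.0286, adjusted p = 0.0523 by Benjamini-Hochberg, exact permutation test for each). The same held for 35% of the common sites. MOT3, which encodes a repressor that acts with Rox1, had a site at -498 bp with 11.0, 8.05 and 9.15 in YPGly and 4.82, 3.99, 3.22 and 4.95 in YPD. Its ranks overlapped between media (shift of 2.33, p = 0.6, exact permutation test). CYC8, a gene of the general corepressor, had a weak site at -538 bp, called at 1.92, 1.28 and 1.45 in YPGly and at 1.33 and 1.16 in YPD repeats 2 and 3.

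At the Hap targets the enrichments were low. CYT1, the cytochrome c1 gene, had 1.46, 1.24 and 1.23 in YPGly and 1.28, 1.21, 1.26 and 1.24 in YPD at -506 bp, and a second site at -1640 bp that 3 YPD lists alone called, at 2.75, 2.36 and 2.24. ATP1, which encodes a subunit of ATP synthase, had 1.13 at -610 bp in YPGly repeat 1 and 1.55, 1.39, 1.45 and 1.65 in YPD. HMG1, a gene of sterol synthesis, had 1.55, 1.16 and 1.19 in YPGly and 1.24, 1.26, 1.26 and 1.30 in YPD. YHB1, the flavohemoglobin gene, had 2.28, 1.75 and 1.90 in YPGly and 1.92, 1.54, 1.65 and 1.70 in YPD. CYB2, the lactate dehydrogenase gene, was called in 3 YPD lists, at 1.38, 1.51 and 1.68. A site without a call in a list is below that list's limit and is not shown to be absent.

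**Figure D5:**
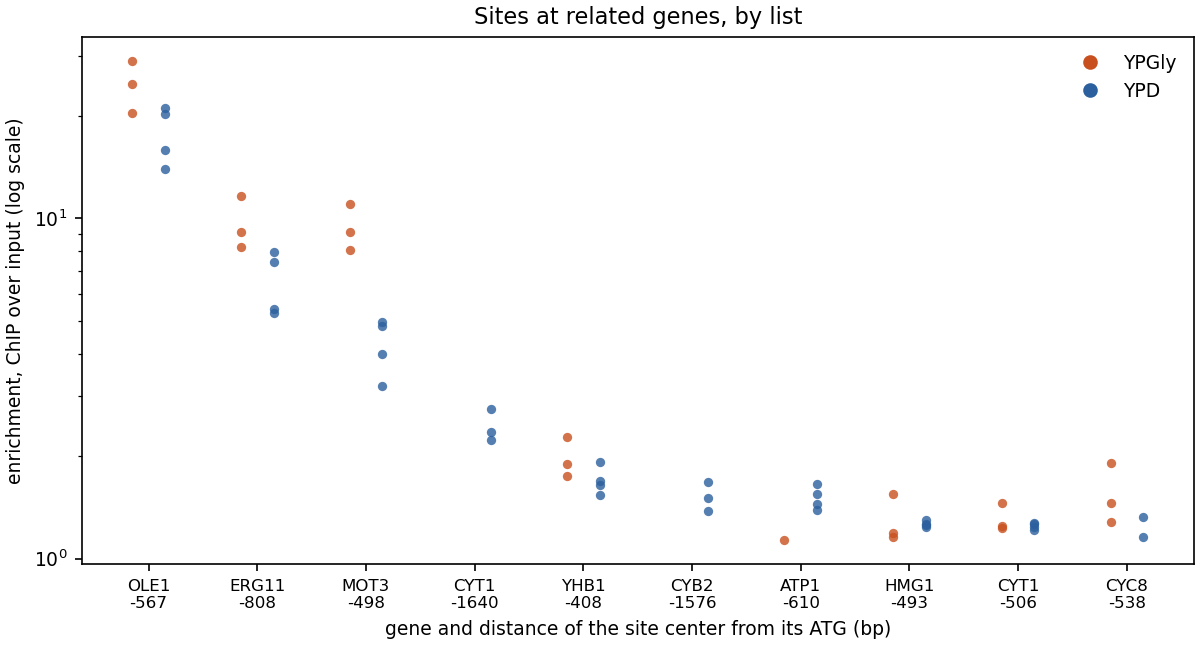
Enrichment at sites of genes regulated by Hap2/3/4/5, Hap1 or Rox1. The y axis is the ratio of ChIP to input on a log scale, the x axis names the gene and the distance of the site from its ATG in bp, and points are lists, YPGly left of YPD; OLE1, ERG11 and MOT3 lie above 3 in every list, and the other sites lie below 3.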

How the data were processed

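Peaks of Sef1-TAP ChIP-seq in YPGly (3 lists) and YPD (4 lists) were analysed. Per the study's methods, the authors trimmed the reads and mapped them to S288C (R64-2-1). Per the labels, each ChIP library was paired with the input of its repeat for peak calling, and 1 list was deposited per repeat. The submitters' processing notes name Trimmomatic 0.36, Bowtie2 2.3.3, FastQC 0.11.8 and DiffBind 2.10.0, and the peak caller is not given in the sources used here. The deposited values are a peak score, a false discovery rate (a q-value of at most 0.05), an expected number of chance peaks, also a score, and the enrichment, a ratio of ChIP to input with its lower bound. The deposited narrow peak lists repeat the score and give the false discovery rate as −log10. Enrichment was used, and scores served as an alternative. The study's methods state a nominal sequencing depth, but read counts are not among the deposited values, and neither the depth reached by each library nor the counting error at a peak can be given.

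Overlapping peak intervals (minimum 1 bp) were merged into sites, and a site was kept when called in at least 3 repeats of a medium. Sites were assigned by their center to genes of the RefSeq annotation of R64 (6002 nuclear protein-coding genes). Sites called in every list were ranked within each list, peaks of 1 list in a site being averaged, and mean ranks were compared by exact permutation with Benjamini-Hochberg adjustment. Motifs were exact matches within the 251 bases around each center. Genes named are the 6 members, genes sharing their sites, the 5 sites nearest in rank to HAP4 and ROX1, and up to 5 genes of each related list. Also named are genes sharing the sites of the related lists, and the genes of the Rox1 list without a site. Repeats are the labels' numbered repeats, so p-values measure the spread between them. Repeat numbers did not pair the lists. Alternatives covered overlap, number of calls, minimum enrichment, window, rank measure, scaling, list length, motif window and each left-out list. The members and lists were chosen with earlier results of these data known. Scripts used scipy 1.17.1 and pandas 2.3.3 under Python 3.11.15, with figures by matplotlib 3.10.9 and arrays by numpy 2.4.6, and were tested on simulated lists.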

Additional observations from a re-analysis of the deposited data

How the results depend on the processing

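The 3 genes with a site remained HAP1, HAP4 and ROX1 under every alternative but 2: with 500 bp upstream 1 gene (HAP1) had a site, and with an enrichment of at least 2 there were 2 (HAP4 and ROX1). ROX1 was nearer the top in YPGly by rank but lower in YPGly when ranked by score (1.5 ranks, adjusted p = 0.0504, Benjamini-Hochberg, exact permutation test), as a percentile of the list (0.447, where a larger value is farther from the top) and as enrichment over the list median (-0.15, log2). The farther HAP4 site had a log2 difference of 0.28 in the deposited enrichment, which is higher in YPGly where its rank was farther from the top. Over the list medians, the farther HAP4 site (-0.42, log2) and the HAP1 site (-0.77, log2) passed the adjusted threshold, as did 72.4% of sites. The nearer HAP4 site and the ROX1 site did not pass it. With an enrichment of at least 2, 98 sites were tested, and the nearer (-3.33 ranks) and farther (18.5 ranks) HAP4 sites passed, each with an adjusted p of 0.0483 (Benjamini-Hochberg, exact permutation test), as did 59.2% of the 98 sites (58), while HAP1 gave no value. Both HAP4 sites had an unadjusted p of 0.0286 in this set and over all 203 sites (exact permutation test). For them only the adjusted p, which depends on the set of sites, moved past the threshold. The cause of the other differences was not tested. With 1 mismatch allowed, 2 of the 4 sites (the nearer HAP4 site and HAP1) held CCGNNNNNCGG, as did 50.7% of all sites.

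Leaving out 1 list at a time, the shift ran from -3.5 to -3 for the nearer HAP4 site, from -1.5 to -1 for ROX1, from 21 to 22.7 for the farther HAP4 site and from 26.5 to 37.7 for HAP1, and 3 genes had a site throughout. The exact permutation p cannot then go below 0.0667. Same-numbered repeats did not deviate together (r of -0.33, -0.28 and -0.0040 for repeats 1, 2 and 3). With repeat number as a replicate block, without YPD repeat 4, the shifts were -3.33, -1.33, 22 and 34.3 for the nearer HAP4, ROX1, farther HAP4 and HAP1 sites, each with p = 0.25 by exact permutation, the smallest that 3 pairs allow. The strongest peak of a list in place of the average, an alternative added after seeing the data, left all 4 shifts as they were. Without read counts, a missing call cannot be told from low coverage.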
